A study of Rattus norvegicus with 4 samples.

Results

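The actin contractile and stress fibre genes described here are Cald1, Tpm1, Tpm2, Tpm4, Tagln, Myl9, Acta2, Myh11 and Myh9, 9 of the 14225 genes that the array annotation names. They were taken by symbol, with every probe set annotated to them. That gave 26 probe sets, of which 21 belong to 1 of these genes alone and 5 to both Acta2 and Actc1. The RNA came from ROE2, an immortalized epithelial line with an unlimited life span, made from fetal tongue (18 days) of a transgenic Wistar rat. The transgene, shared by all days, encodes the SV40 large T antigen in its temperature-sensitive tsA58 form, which keeps cells dividing at the lower temperature and is inactivated at higher ones. Cells grew on collagen type I with 2% serum and 10 ng/ml EGF for 24 h at 33 °C and were then moved to 37 °C for 0, 3, 6 or 9 days, day 0 being the control. Each day had 1 Affymetrix 3' expression array, so there were no replicates and no p-values, precision is limited by having 4 arrays, and what belongs to a day and what to its array cannot be told apart. In such bulk RNA, fewer cells of a type and less RNA per cell cannot be told apart.

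Stress fibres are bundles of actin filaments that myosin II pulls on. Myosin heavy and light chains form the motor, tropomyosins coil along the filament and set which proteins may bind it, and caldesmon and transgelin also bind actin. Epithelial cells build these fibres from non-muscle myosin and cytoplasmic actins, while Acta2, Myh11 and Tagln are best known from smooth muscle and myofibroblasts. The transcription factor SRF binds the CArG box, a CC and a GG around a run of A and T, and with its actin-sensing partners MRTF-A and MRTF-B drives many genes of this group.

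The stretches before the transcription start of Acta2, Myh9 and Tpm4 are shown because these genes alone had a listed window at the annotated end of the gene. They are the 250 bases before the RefSeq start on build GRCr8, 5′ to 3′, with capitals for a CArG box with at most 1 C or G in its A and T run and for CATTCC, the site of TEAD factors, on either strand.
Acta2, chr1:241172504-241172753, minus strand: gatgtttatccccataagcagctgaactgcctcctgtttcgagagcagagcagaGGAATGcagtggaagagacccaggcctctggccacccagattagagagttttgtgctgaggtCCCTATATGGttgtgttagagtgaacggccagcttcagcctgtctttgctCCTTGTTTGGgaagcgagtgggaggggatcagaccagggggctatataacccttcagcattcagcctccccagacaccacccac
Myh9, chr7:111304964-111305213, minus strand: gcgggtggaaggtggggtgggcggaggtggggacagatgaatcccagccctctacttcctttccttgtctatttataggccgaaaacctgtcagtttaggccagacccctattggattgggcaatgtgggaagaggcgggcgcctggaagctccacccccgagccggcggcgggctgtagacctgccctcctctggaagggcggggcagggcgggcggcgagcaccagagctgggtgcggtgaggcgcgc
Tpm4, chr16:17732484-17732733, minus strand: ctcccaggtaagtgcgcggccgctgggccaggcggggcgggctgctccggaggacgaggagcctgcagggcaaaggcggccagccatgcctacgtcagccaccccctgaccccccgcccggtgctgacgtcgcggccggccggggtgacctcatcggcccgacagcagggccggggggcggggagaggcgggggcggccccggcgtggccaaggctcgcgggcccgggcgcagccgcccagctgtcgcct
The Acta2 window held 2 such relaxed CArG boxes, starting 134 and 84 bases before the start, and CATTCC on the opposite strand 196 bases before it. The Myh9 and Tpm4 windows held none of these letters. A relaxed CArG box was present in 8.08% of the 33465 rat windows of this length and CATTCC in 12.1%. The strict CArG box, in 1.5% of windows, was in none of the windows of these genes. RefSeq windows were matched for 6 of the 9 genes. Those of Cald1, Tpm1 and Tpm2 lie inside the annotated span of the gene and are not printed. The windows nearest the gene end of Cald1 and Tpm1 each held 1 CATTCC, 195 and 31 bases before the start. A match describes these letters and shows no binding.

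The values are log2 intensities after RMA. Each gene is read by its probe set of highest mean, and it was counted when that value reached 6 on at least 1 array, as 8807 genes did. The calls of higher and lower stand for a log2 difference of at least 1, that is 2-fold. Of the 9 genes, 7 reached 6, and Tagln and Myl9 did not. On day 3, Tpm1 was the 1 gene of the 7 called lower, against 2.15% of all counted genes, and 0 were called higher, against 4.30%. On day 6, 0 were called lower (8.07% of all) and Myh11 was called higher (5.73% of all). On day 9, 0 of the 7 were called in either direction, against 6.25% of all genes lower and 5.56% higher. Each of these calls is a single gene, and nothing is read from its share. At a threshold of 1.5-fold, Tpm1 and Tpm2 were lower on day 3, 2 of 7 beside 10.0% of all genes, and 0 were higher beside 10.2%. On day 6, Tpm1 and Tpm2 were again the 2 lower, beside 22.9%, and Myh11 the 1 higher, beside 12.1%. On day 9, Cald1, Tpm1 and Myh9 were lower, 3 of 7 beside 19.6%, and Myh11 was higher, 1 of 7 beside 12.0%. The median difference from day 0 over the 7 genes was -0.36, -0.50 and -0.29 on days 3, 6 and 9, beside -0.05, -0.18 and -0.14 over all counted genes.

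The 7 genes did not move as a block. Cald1, Tpm1, Tpm2, Tpm4 and Myh9 read below day 0 on all 3 later days, 5 of 7 where 44.3% of all genes did so. For Tpm4 this depends on scaling and probe set. It differed by -0.07, -0.07 and -0.15, each smaller in size than that day's housekeeping median of -0.16, -0.27 and -0.18. Centred on housekeeping genes, Tpm4 thus lies above day 0 on all 3 later days, at 0.031 on day 9. Its second probe set read 0.83 above day 0 on day 6. Myh11 read above day 0 on all 3, as 26.2% of all genes did, and Acta2 lay on both sides. Some features of the arrays touch these values. The spike-ins, foreign transcripts that are added to every hybridisation at known amounts, read 0.14, 0.39 and 0.63 above day 0 on days 3, 6 and 9 (median of 18 probe sets). With the arrays centred on these, the median gene came to -0.19, -0.57 and -0.77, so the differences given here are relative to the other genes. The beta-actin control probe set for the 5' part of the transcript read 11.17, 10.53, 12.32 and 11.03 on days 0, 3, 6 and 9, and the 3' one 13.42, 12.97, 13.54 and 13.37, so the gap between them was 1.22 on day 6 and 2.25, 2.44 and 2.35 on days 0, 3 and 9. The same gap for GAPDH stayed between -0.017 and 0.18. Where another probe set of a gene reached 6, it parted from the one used by a median of 0.17, 0.41 and 0.38 in the differences of days 3, 6 and 9 from day 0 and by up to 0.57, 1.03 and 1.01 in 90% of cases. This gap is within an array and does not measure the error between arrays.

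**Figure D1:**
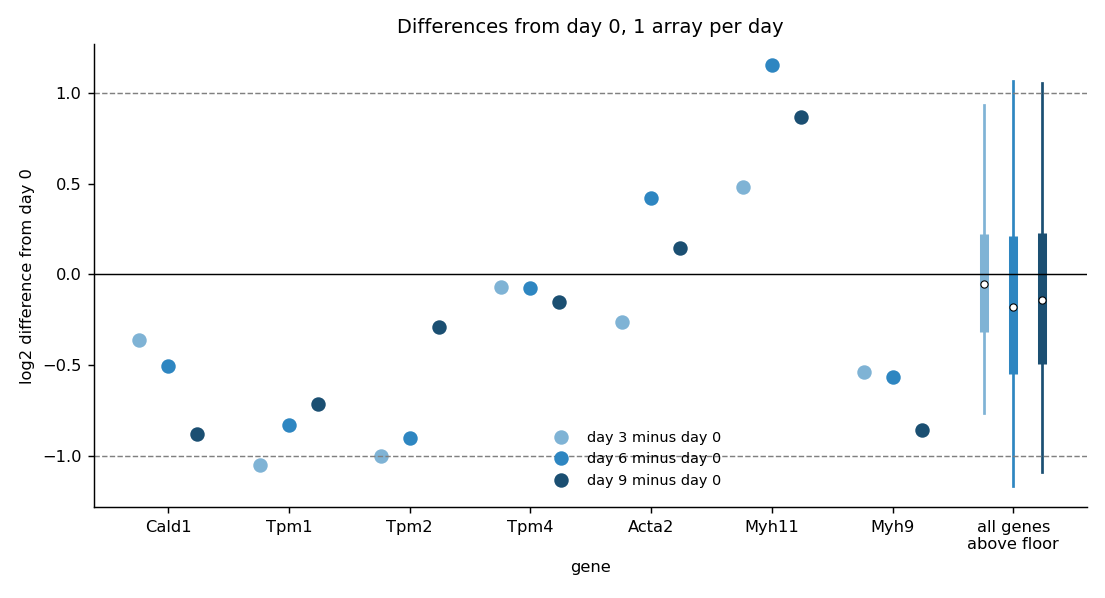
Log2 difference from day 0 (vertical axis) on days 3, 6 and 9 for the 7 contractile genes that reached 6, with 1 array per day. At the right, thin lines span the 5th to 95th percentile of the 8807 counted genes, thick bars the middle 50%, and white points are medians. Dashed lines mark 2-fold. Tpm1 on day 3 and Myh11 on day 6 lie past them.

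Of the motor genes, Myh9, which encodes the heavy chain of non-muscle myosin IIA, the main stress fibre motor outside muscle, read 11.63, 11.09, 11.07 and 10.78 on days 0, 3, 6 and 9. Each value was below the one before, though day 6 differed from day 3 by only -0.026. Day 9 differed from day 0 by -0.85, or 1.81-fold. Of all genes, 9.31% had a day 9 difference as low or lower, and with spike-in centring it was -1.49. A second Myh9 probe set read 6.98, 6.43, 6.96 and 6.59, below day 0 on day 9 by 0.39 but at nearly the day 0 value on day 6.

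Cald1 encodes caldesmon, which holds myosin off actin and steadies the filament. It read 10.93, 10.57, 10.43 and 10.06 on days 0, 3, 6 and 9, again lower at each step. The day 9 difference was -0.88, or 1.84-fold, with 8.69% of genes as low or lower, and it was -0.33 with all its probe sets averaged and -1.51 with spike-in centring. A second probe set read 10.06, 9.75, 9.62 and 9.42, the same order of days, and differed by -0.64 on day 9. The remaining one stayed between 2.62 and 3.21, under the brightest bacterial control on every array, and carries no usable level. It still enters the average of -0.33 with the weight of the others. The courses of Cald1 and Myh9 were the most alike of any pair among the 7, at a root mean square distance of 0.11 over their 3 differences from day 0. Cald1, Myh9 and Tpm4 were the 3 of 7 that were lower at each step, as 11.3% of all genes were. On day 6 against day 3, however, Myh9 differed by -0.026 and Tpm4 by -0.0043, beside a median of -0.13 over all counted genes. Their second probe sets rose by 0.53 and 0.87 in that step, so nothing is read from this count. The least alike pair was Tpm1 and Myh11, at 1.71.

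The tropomyosin genes differed from one another. Tpm1, an alpha-tropomyosin gene with many spliced forms, read 11.90, 10.85, 11.07 and 11.18 on days 0, 3, 6 and 9. It was lower on day 3, with a difference of -1.05, or 2.07-fold, where 1.82% of genes were as low or lower, and it differed by -0.71 on day 9. The day 3 difference was -0.34 with its probe sets averaged, -0.97 with unmarked probe sets only and -0.89 with housekeeping centring, each short of 2-fold. Tpm2, the beta-tropomyosin gene, read 11.59, 10.59, 10.69 and 11.30. Its day 3 difference of -0.997 falls just short of 2-fold, and on day 9 it differed by -0.29. The probe sets used for Tpm1 and Tpm2 were at their lowest on day 3, and that of Tpm2 came back further, by 0.61 on day 9 against day 6. The other Tpm1 probe sets that reached 6 were instead each lowest on day 9, as given below. The second Tpm2 probe set stayed between 4.47 and 4.64. Tpm4, whose short product is a cytoskeletal tropomyosin, read 12.39, 12.32, 12.32 and 12.24 and spanned 0.15 over the 4 days.

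**Figure D2:**
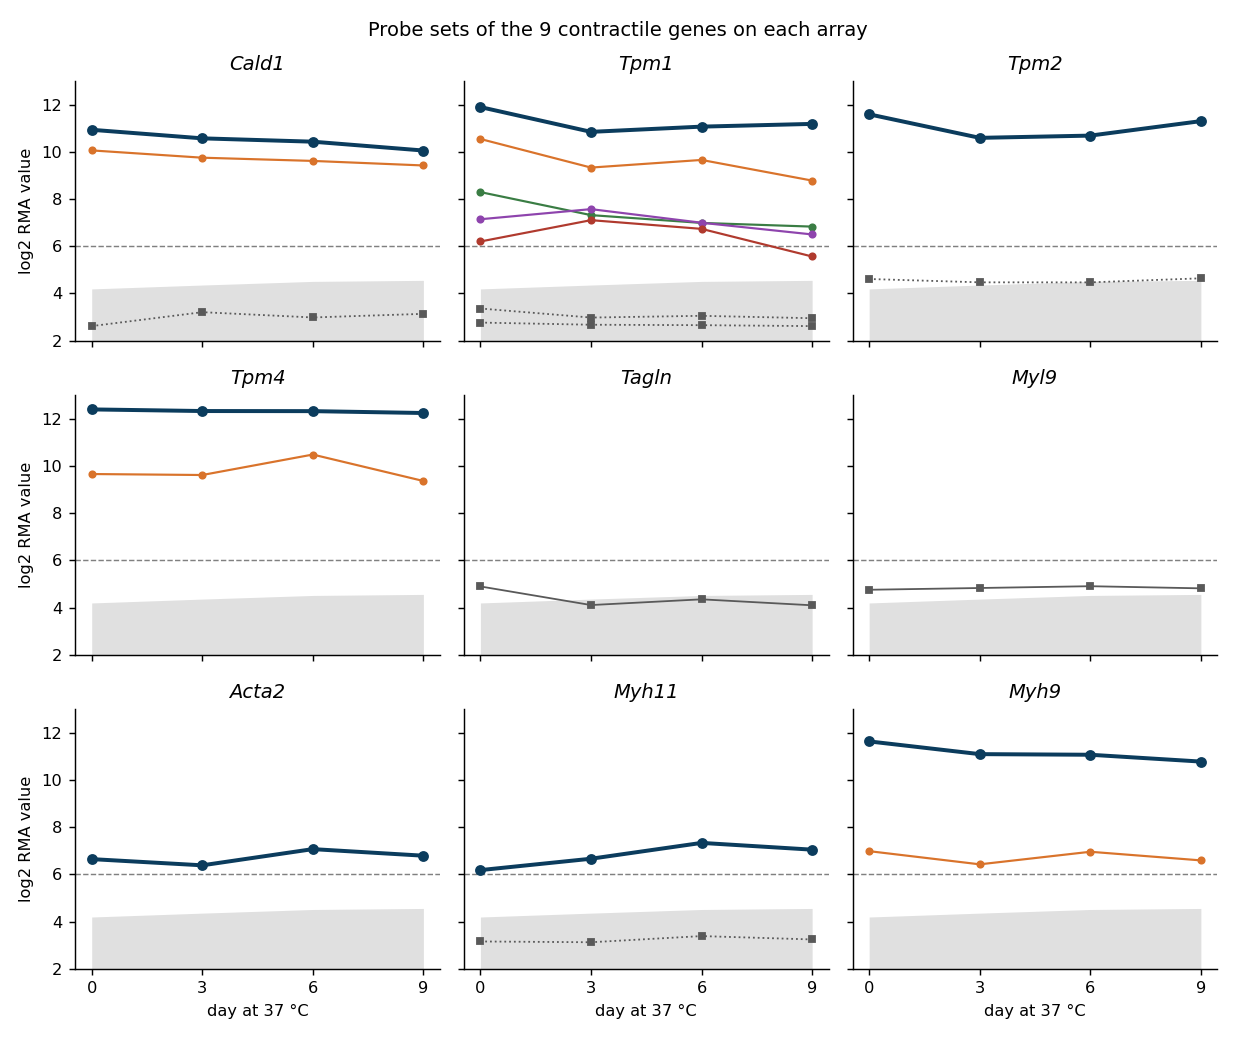
Log2 RMA value (vertical axis) of each probe set annotated to 1 of the 9 genes alone, by day at 37 °C (horizontal axis), 1 array per day. Thick lines are the probe sets used for the gene, thin coloured lines other probe sets that reached 6 (dashed line), and grey squares those that did not, joined by a solid line where used for the gene. Grey areas lie under the brightest bacterial control. By the probe sets used, Cald1 and Myh9 slope down, Tpm1 and Tpm2 dip on day 3, and Tagln and Myl9 stay under 6.

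Tpm1 had 7 probe sets, of which 5 reached 6, and these parted on day 3. The probe set 1370288_a_at read 10.54, 9.33, 9.66 and 8.78 on days 0, 3, 6 and 9, and its differences from day 0 were -1.21, -0.89 and -1.76. The probe set 1395794_at read 8.29, 7.32, 6.99 and 6.83, with differences of -0.97, -1.31 and -1.46. Both thus differed more from day 0 on day 9 than the probe set used for the gene. The probe set 1368724_a_at read 7.15, 7.57, 6.997 and 6.50 and was 0.43 above day 0 on day 3. The probe set 1371241_x_at read 6.20, 7.11, 6.74 and 5.57 and was 0.90 above day 0 on day 3 and 0.53 on day 6. Its mark x stands for probes that may bind other transcripts. On day 9 these last probe sets both differed from day 0 by -0.64, so all 5 read below day 0 on that day. No source at hand states which spliced forms each probe set reads. The other Tpm1 probe sets were under the brightest bacterial control on every array, and they enter the averaged day 3 difference of -0.34 with equal weight.

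Counted over the 14 probe sets of these genes that reached 6, 2 were lower on day 3, 1 on day 6 and 2 on day 9, all of Tpm1, beside 2.26%, 7.43% and 5.91% of the 11515 such probe sets on the array. Those higher numbered 0, 1 and 0, the 1 being Myh11, beside 4.14%, 7.31% and 6.86%.

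Tpm4 had a second probe set, 1368838_at, that read 9.66, 9.61, 10.48 and 9.36 on days 0, 3, 6 and 9. Its day 6 value stood 0.83 above day 0, while the probe set used for the gene differed by -0.07. That day is the one on which the 5' beta-actin control stood 1.15 above day 0, its middle one 0.63 and its 3' one 0.12. The part of the labelling along the transcript in the day 6 value of this probe set was not tested.

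**Figure D3:**
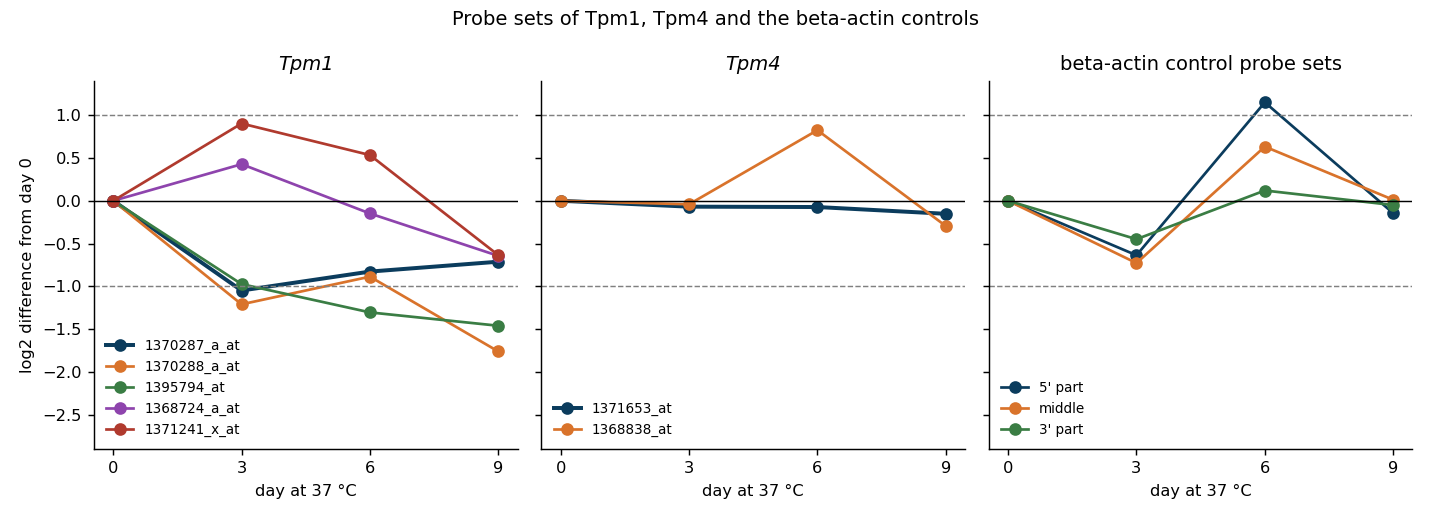
Log2 difference from day 0 (vertical axis) by day at 37 °C (horizontal axis) for the Tpm1 and Tpm4 probe sets that reached 6 and for the 3 beta-actin control probe sets, 1 array per day. Thick lines are the probe sets used for the gene and dashed lines mark 2-fold. The Tpm1 probe sets part on day 3 and all lie below 0 on day 9, and 1 Tpm4 probe set and the 5' beta-actin control peak on day 6.

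Of the genes best known from smooth muscle, Myh11, the smooth muscle myosin heavy chain gene, read 6.18, 6.66, 7.33 and 7.05 on days 0, 3, 6 and 9. It was higher on day 6 by 1.15, or 2.22-fold, with 4.26% of genes as high or higher, and stood 0.87 above day 0 on day 9. This rests on 1 probe set, 1370896_a_at. The other, 1381219_at, stayed between 3.12 and 3.39, under the brightest bacterial control on every array. The day 6 call ended with both averaged, at 0.69, with the unmarked one alone, at 0.23, and with spike-in centring, at 0.76. The day 9 difference was 0.48, 0.085 and 0.23 in these settings. Acta2, the smooth muscle alpha-actin gene whose upstream window held the relaxed CArG boxes, read 6.65, 6.38, 7.07 and 6.79. Its differences from day 0 were -0.26, 0.42 and 0.14, in no single direction, and the last turned to -0.49 with spike-in centring. The 5 probe sets shared with the cardiac actin gene Actc1 cannot be given to either gene. They stayed under 6, and 3 of them were under the brightest bacterial control on every array. The brightest, 1370856_at, read 5.18, 5.02, 5.48 and 5.21 on days 0, 3, 6 and 9, above that control on all 4. The day 6 peaks of Myh11 and Acta2 fall on the array with the raised 5' beta-actin control, whose part in them was not tested.

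Tagln, which encodes the actin-binding protein transgelin (SM22), read 4.89, 4.10, 4.35 and 4.09 on days 0, 3, 6 and 9. It cleared the brightest bacterial control on the day 0 array alone, so the later days give only bounds. Against that control it was at least 1.45-fold lower on day 3, 1.30-fold on day 6 and 1.26-fold on day 9. Myl9, which encodes a myosin regulatory light chain, read 4.75, 4.83, 4.90 and 4.81, above the controls on all 4 arrays, and spanned 0.15. Its day 9 difference of 0.06 turned to -0.57 with spike-in centring.

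Of 12 oral keratinocyte markers, all 12 read 6 or more on every array, as the epithelial label has it. Of 11 measured smooth muscle markers, 2, 2, 1 and 1 reached 6 on days 0, 3, 6 and 9, namely Smtn and, on the first pair of days, Hspb6. Their summed linear intensity was 635, 1078, 907 and 889, most of it Smtn at 8.67, 9.72, 9.46 and 9.39 on the log2 scale. Above the brightest bacterial control were 5, 5, 4 and 5 of the 11, with Des at 5.31, 5.49, 5.63 and 5.74 and Ppp1r14a at 4.63 to 5.31 clearing it on all 4 arrays and Mylk on 3. Cnn1, Myocd, Actg2, Lmod1, Synpo2 and Nexn were under it throughout. No fibroblast marker of 10 reached 6 on any array, with a summed intensity of 116 to 125. The 15 skeletal muscle markers had Myh1 alone above 6, at 9.94, 10.28, 9.27 and 8.84, and their sum was 682 to 1445. No endothelial marker of 5 reached 6 (sum 43.8 to 55.1). Cd68 was the 1 leukocyte marker of 5 to do so, on days 3, 6 and 9 (sum 106 to 152), and of 4 nerve markers Tubb3 did on every day and Snap25 on days 3 and 6 (sum 264 to 563). The part of these markers in the values of the contractile genes was not tested.

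On day 6 against day 3, 0 contractile genes were called lower and 0 higher, beside 1.60% and 0.829% of all genes, and on day 9 against day 6 likewise 0 and 0, beside 0.590% and 0.250%. In the first of these Acta2 and Myh11 differed most, by 0.69 and 0.67, and in the second Tpm2, by 0.61.

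The genes nearest in course to the 3 contractile genes with the largest differences were sought among all counted genes, by the root mean square distance over the differences of days 3, 6 and 9 from day 0 on the 4 arrays. Each course is that of the probe set used for the gene alone, and other Tpm1 probe sets followed other courses, as given above. Nearest to Tpm1 was Flna, the gene of the actin cross-linker filamin A, at a distance of 0.04 and with differences of -1.03, -0.84 and -0.77. C10h16orf90 at 0.04, the connexin gene Gjb5 at 0.07 and the fatty acid oxidation gene Hadh at 0.07 followed. Nearest to Tpm2 were Tex261 and Zc4h2, each at 0.03, Dhrs1 at 0.03 and Ube3d at 0.05. Nearest to Myh11 were the cyclin gene Ccnd2 at 0.05, Nccrp1 at 0.07, Crybg3 at 0.08 and the chromatin remodeller gene Chd7 at 0.08.

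Other genes of the same structures were read from fixed lists, on which the calls compare with the shares of all genes given above. Of 22 other stress fibre and contractile genes, 1, 2 and 4 were lower on days 3, 6 and 9 and 0, 1 and 0 higher, with a median of -0.33, -0.50 and -0.63. On day 3 the 1 lower gene was Flna. On day 6 the lower genes were Actn1 and Pxn. Pdlim5, which encodes an adaptor on alpha-actinin, was higher by 1.33 on day 6 and stood 0.80 above day 0 on day 9. Its 1 other probe set that reached 6 did not read above day 0 on day 9. The lower genes of day 9 were Palld at -1.35, Pdlim1 at -1.17, Actn1 at -1.15 and Pxn at -1.01. Palld encodes the fibre scaffold palladin, Actn1 the cross-linker alpha-actinin and Pxn the focal adhesion protein paxillin. Palld read 9.01, 8.70, 8.15 and 7.67 over the days, Pdlim1 12.21, 11.74, 11.56 and 11.05, and Actn1 12.65, 11.74, 11.43 and 11.50. Palld and Pdlim1 thus went down step by step, as Cald1 did, while Actn1 had its lowest value on day 6. Myh9 was nearly level from day 3 to day 6, with a difference of -0.026. The cytoplasmic actin gene Actg1, at 14.02, 13.92, 13.96 and 14.04, differed from day 0 by -0.10, -0.06 and 0.02, near the top of the range of the arrays.

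Of 12 genes of SRF, its MRTF partners and their targets, 1, 1 and 2 were lower and 3, 4 and 2 higher on days 3, 6 and 9, and the medians were -0.18, -0.15 and -0.05. The immediate early genes Fos and Junb were 1.61 and 1.77 higher on day 9, whereas Ccn2, a matricellular gene, was lower, at -1.40, as was the LIM-domain gene Fhl2, at -1.07. Fhl2 was also the lower gene of days 3 and 6, and Egr1, Fos and Filip1l were higher on both, joined by Junb on day 6. Mrtfa, the gene of MRTF-A, read 9.06, 8.45, 8.12 and 8.17, and Srf 9.27, 8.83, 8.73 and 8.87. Neither passed 2-fold, with day 9 differences of -0.88 and -0.40. The 1 other Srf probe set that reached 6 did not read below day 0 on day 9.

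Of 19 genes of actin polymerisation and turnover, 0, 1 and 1 were lower and 0, 1 and 1 higher, with medians of -0.26, -0.07 and -0.10. The coronin gene Coro1c was at -1.33 and the actin nucleation gene Wasl at 1.28 on day 9, and Pfn1, the profilin gene, at -0.84. Of 12 bundling and cortex genes, Lcp1 and Fscn1 were lower on all 3 later days and 0 were higher, with medians of 0.02, -0.13 and -0.34. Lcp1, the L-plastin gene, read 6.56 on day 0 and under the brightest bacterial control later, at least 4.02-fold lower on day 9. Fscn1, the fascin gene of filopodia, read 7.91, 5.77, 5.70 and 6.26. Lima1, the gene of the actin cross-linker EPLIN, differed by -0.93 on day 9.

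**Figure D4:**
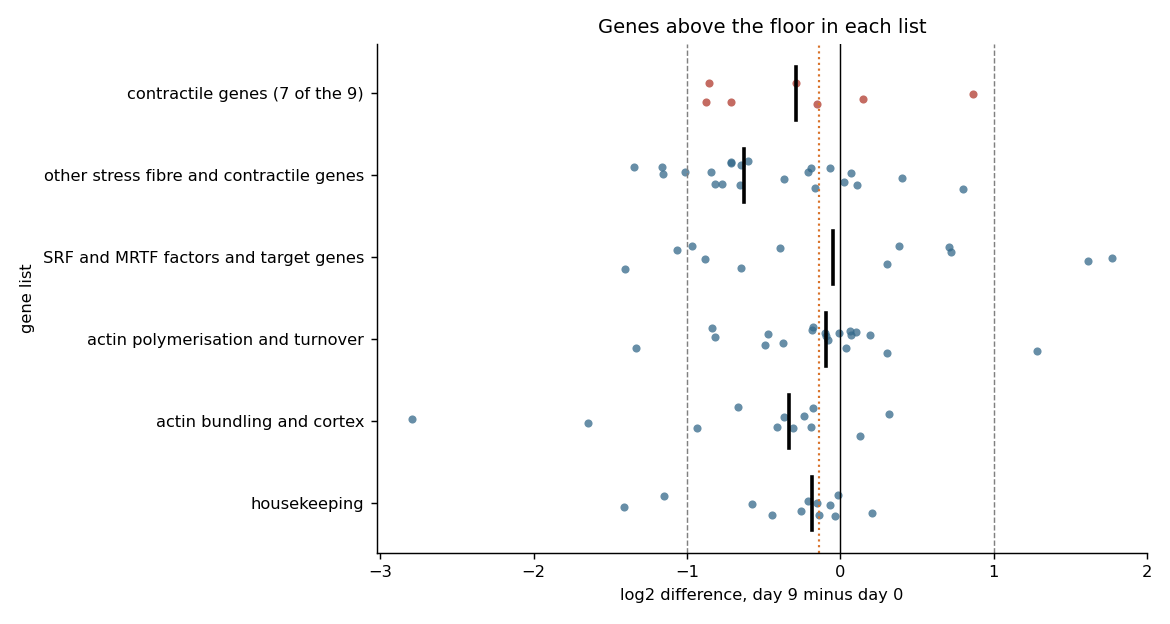
Log2 difference of day 9 minus day 0 (horizontal axis) for each gene that reached 6, by gene list (vertical axis), 1 array per day. Points are genes, black bars list medians, the dotted line the median of all 8807 counted genes at -0.14, and dashed lines 2-fold. The 7 contractile genes lie between -0.88 and 0.87, within 2-fold, and Palld, Pdlim1, Actn1 and Pxn of the second list lie past it.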

How the data were processed

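The values analysed are the authors' deposited log2 intensities. RMA, named in the submitters' processing notes, subtracts background, evens out the arrays and summarises each probe set, so total RNA per cell is not measured. Its software is not stated in any source at hand, and base 2 is inferred from the spread of the values. Column medians were 5.22, 5.22, 5.24 and 5.24 on days 0, 3, 6 and 9. RNA integrity was 9.5 to 10 and 500 ng was labelled, per the labels.

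Of 31099 probe sets, 20843 have 1 gene symbol, 425 several and 9831 none. A repeated symbol counted once. Signal was judged against 27 bacterial control probe sets, whose brightest read 4.19 to 4.56. Differences between arrays were taken without a test. From each list the text names the 3 genes of largest day 9 difference. 1 list is not reported here. Other called genes, Srf, Mrtfa, Actg1 and the markers were picked after seeing their values. Of 12 housekeeping genes, used for centring, the medians were -0.16, -0.27 and -0.18 on days 3, 6 and 9, and Tfrc, Gusb and Sdha differed most on day 9, by -1.41, -1.15 and -0.58. Members and lists were chosen with earlier results of these data known. Floors, probe set rules, scalings and thresholds were varied. Python 3.11.15, numpy 2.4.6, pandas 2.3.3 and matplotlib 3.10.9 were used.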

Additional observations from a re-analysis of the deposited data

How the results depend on the processing

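With 1 array per day, no paired analysis was possible and no replicate was left out. Of the counts and medians of the contractile genes under each alternative, 131 stayed within the tolerance, 27 moved and 3 changed sign. The tolerance was 1.5 times for a count and, for a median, the median gap between probe sets of a gene, which is 0.17, 0.41 and 0.38 for the differences from day 0 and 0.33 and 0.24 for the later steps. It is wide beside these medians and says little for counts, all 0 or 1 as reported. Housekeeping centring gave -0.21, -0.24 and -0.10 on days 3, 6 and 9, and averaged probe sets, which leave 6 genes, -0.24 on day 6. All are within the tolerance.

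With probe sets averaged per gene, 0 genes were lower on day 3 and 0 higher on day 6. With unmarked probe sets, 0 were lower on day 3, 1 on day 6 and 1 on day 9, in each case Tpm1 (day 9 difference -1.46), and 0 were higher on day 6. Centred on the spike-ins, 2, 2 and 3 were lower on days 3, 6 and 9, those of day 9 being Cald1, Tpm1 and Myh9, and 0 were higher on day 6. This centring lowers all genes of a later array alike, the median gene to -0.19, -0.57 and -0.77. The share of all genes called under it was not computed, so nothing is read from these counts. The day 9 median of the contractile genes was then -0.92, and Acta2 and Myl9 turned to -0.49 and -0.57. Centred on the housekeeping list, 0 were lower on day 3, Myh11 made 1 higher on day 9 and Tpm4 turned to 0.031. A further quantile normalization gave 2 lower on day 3 and 1 higher on day 9. A threshold of 1.5-fold gave 2, 2 and 3 lower on days 3, 6 and 9 and 1 higher on day 9. It also gave 2 higher on day 6 against day 3 and 1 on day 9 against day 6. The share of all genes at 1.5-fold was not computed for these later steps, nor any share under the other alternatives. At 3-fold, 0 were lower on day 3 and 0 higher on day 6. A floor of 8, which drops Acta2 and Myh11, gave medians of -0.54 and -0.71 on days 3 and 9 and 0 higher on day 6.

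The median of day 6 against day 3, 0.095 as reported, turned to -0.0043 at that floor, -0.015 with unmarked probe sets and -0.15 with spike-in centring, and that of day 9 against day 6, -0.28, was -0.52 with the last. With the median gene as centre no count changed, and the medians of days 6 and 9 against day 0 and of day 6 against day 3 were -0.34, -0.18 and 0.23. With a floor of 5 no count or median changed, and with no floor the median of day 9 against day 6 was -0.25. With the day 6 array left out of the choice of probe set and floor (chosen after seeing the data), the counts and medians of days 3 and 9 against day 0 were as reported, and those involving day 6 were not computed.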
